A study of Mus musculus with 24 samples.

Results

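The p53 response genes described here are Cdkn1a, Eda2r, Trp53inp1, Mdm2, Ccng1, Bax, Phlda3, Sesn2, Bbc3 and Zmat3. They were taken by symbol from a table of 23337 mouse genes, and all 10 were found there and passed the filter on low counts that left 12281 genes. RNA was counted in 24 libraries of heart muscle cells (cardiomyocytes), 6 in each of 4 groups, from mice aged 4 weeks that had been given an adeno-associated virus (AAV) on postnatal day 1. The study targeted Myocd, Mrtfa and Mrtfb, coactivators of the transcription factor Srf. All mice were labelled Rosa-Cas9/Cas9, so every group carried the nuclease Cas9, and the controls carried it too. Ctrl mice had no further allele and received AAV-Cre. MKO mice had the Ctrl genotype and received AAV-Myocd-sgRNA, a virus with a guide RNA against Myocd. DKO mice had the genotype labelled Mrfta-/-; Mrtfb-F/F; Rosa-Cas9/Cas9 (the submitters' spelling of Mrtfa) and received AAV-Cre. TKO mice had the DKO genotype and received AAV-Myocd-sgRNA. Only MKO and TKO therefore received a guide, and no group received a guide against another target. The promoter driving Cre or Cas9, and whether the guide virus also carries Cre, are not given in the sources used here.

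The transcription factor p53 is held low in unstressed cells by Mdm2, which marks it for destruction. DNA breaks and other stresses stabilise the p53 protein, and it then switches on genes that stop the cell cycle, promote cell death, adjust metabolism or feed back on p53 itself. A cut made by a nuclease such as Cas9 is a DNA break, and cardiomyocytes leave the cell cycle soon after birth.

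In these cells 6 of the 10 genes rose in TKO against Ctrl, led by Eda2r and Cdkn1a, and no member fell; 14.1% of all tested genes were called there. The threshold for a call was an adjusted p of 0.05. No member was called in MKO against Ctrl, the comparison of the guide virus with AAV-Cre in mice with intact Mrtf genes, and none in DKO against Ctrl. Of all tested genes 0% were called in MKO against Ctrl and 0.635% in DKO against Ctrl. The p53 feedback genes Mdm2 and Ccng1 were called in no comparison. The RNA of p53 itself (Trp53) was likewise called in none.

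Sequences upstream of 4 members are shown because their RNA went different ways: Cdkn1a and Eda2r rose in TKO, and Mdm2 and Bax passed in no comparison. Each is the 250 bases before a transcription start in RefSeq (build GRCm38.p6), 5′ to 3′ on the gene's own strand, with every match to the p53 half-site consensus in capitals.
Cdkn1a (chr17:29090729-29090978, + strand): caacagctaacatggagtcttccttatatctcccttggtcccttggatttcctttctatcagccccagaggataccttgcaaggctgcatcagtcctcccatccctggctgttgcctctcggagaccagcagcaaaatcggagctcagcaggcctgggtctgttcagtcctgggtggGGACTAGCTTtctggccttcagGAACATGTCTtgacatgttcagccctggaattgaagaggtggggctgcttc
Eda2r (chrX:97377210-97377459, - strand): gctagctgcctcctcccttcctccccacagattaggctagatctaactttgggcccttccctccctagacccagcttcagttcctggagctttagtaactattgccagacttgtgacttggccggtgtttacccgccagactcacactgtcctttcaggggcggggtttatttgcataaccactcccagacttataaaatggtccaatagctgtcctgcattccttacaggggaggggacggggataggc
Mdm2 (chr10:117710759-117711008, - strand): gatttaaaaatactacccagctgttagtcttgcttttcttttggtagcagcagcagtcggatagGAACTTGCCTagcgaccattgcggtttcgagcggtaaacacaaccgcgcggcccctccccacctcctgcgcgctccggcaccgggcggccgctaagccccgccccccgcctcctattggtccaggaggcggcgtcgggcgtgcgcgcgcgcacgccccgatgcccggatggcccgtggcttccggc
Bax (chr7:45466899-45467148, - strand): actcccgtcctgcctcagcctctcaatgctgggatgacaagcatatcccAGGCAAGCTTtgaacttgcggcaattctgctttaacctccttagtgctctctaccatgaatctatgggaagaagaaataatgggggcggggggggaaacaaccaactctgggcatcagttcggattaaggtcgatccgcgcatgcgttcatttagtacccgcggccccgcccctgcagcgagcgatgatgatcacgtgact

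The half-site is 10 bases long and is the same read from either strand, and no other motif was searched. Of the 10 members 8 had an entry in the promoter table, with 11 windows among them, and 4 of the 8 held at least 1 match. The Cdkn1a window held GGACTAGCTT beginning 73 bases before the start and GAACATGTCT beginning 51 bases before it. The other Cdkn1a window, at a start further downstream, held none. Mdm2 held GAACTTGCCT, Bax held AGGCAAGCTT and Ccng1 held GGGCAAGCCT, beginning 186, 201 and 185 bases before the start. No match was found in the windows of Eda2r, Phlda3, Sesn2 or Bbc3. For comparison, 7.13% of all 32851 windows of this length held a match, as did 8.2% of the 27025 genes. A match is a string of letters and was not shown here to be bound.

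The groups were first checked against their labels. Mrtfa, listed as Mkl1, fell by 1.86 on the log2 scale in TKO against Ctrl and by 1.92 in DKO against Ctrl, and Mrtfb, listed as Mkl2, fell by 0.46 and 0.57 (all adjusted p at or below 0.00603, edgeR's quasi-likelihood test with Benjamini-Hochberg adjustment). In TKO against DKO, which received different viruses, Mkl2 differed by 0.10 ± 0.11 (adjusted p = 0.58, edgeR). In TKO against MKO, which both received the guide virus, it differed by -0.53 ± 0.11 (adjusted p = 0.00163, edgeR). Whether the guide virus carries Cre was not tested. Myocd RNA was -0.37 in MKO against Ctrl without a call and 0.40 in TKO against Ctrl (adjusted p = 0.0437, edgeR). The latter call was lost in 3 of 8 alternative fits and in 14 of 24 fits without 1 library, and these RNA levels do not check editing by the guide. Total counts per library lay between 5.83e+06 and 1.718e+07. The smallest library, DKO 1, stood apart from its group, with a median correlation of 0.914 against the other DKO libraries where other libraries had 0.966 to 0.985 with theirs. Calls that changed without DKO 1 are given with and without it. Cardiomyocyte markers were high in every library (their 8 genes summed to between 76440 and 129800 CPM, read counts scaled to library size), and leukocyte markers summed to between 4.975 and 28.95 CPM. The labels do not state that each library is a different animal, and the p-values therefore rest on a spread among libraries that may be technical.

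Levels per length differed widely among the members. In Ctrl, on the scale of reads per kilobase of exon scaled to library size (RPKM), Ccng1 was at 246 ± 60.5 (SD, n = 6). Mdm2 followed at 35.4 ± 4.14, Bax at 28.5 ± 5.07, Cdkn1a at 24.2 ± 8.53 and Phlda3 at 15 ± 1.85. Below these lay Sesn2 at 4.12 ± 0.56, Trp53inp1 at 3.48 ± 0.926, Eda2r at 1.5 ± 0.369, Bbc3 at 1.05 ± 0.377 and Zmat3 at 0.488 ± 0.124. Among neighbours in this order, Bax and Cdkn1a, and Sesn2 and Trp53inp1, had means within 1 SD of each other. Trp53 itself was at 8.32 ± 1.75 RPKM. All further levels are CPM, which compare libraries for 1 gene and not genes with each other.

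**Figure D1:**
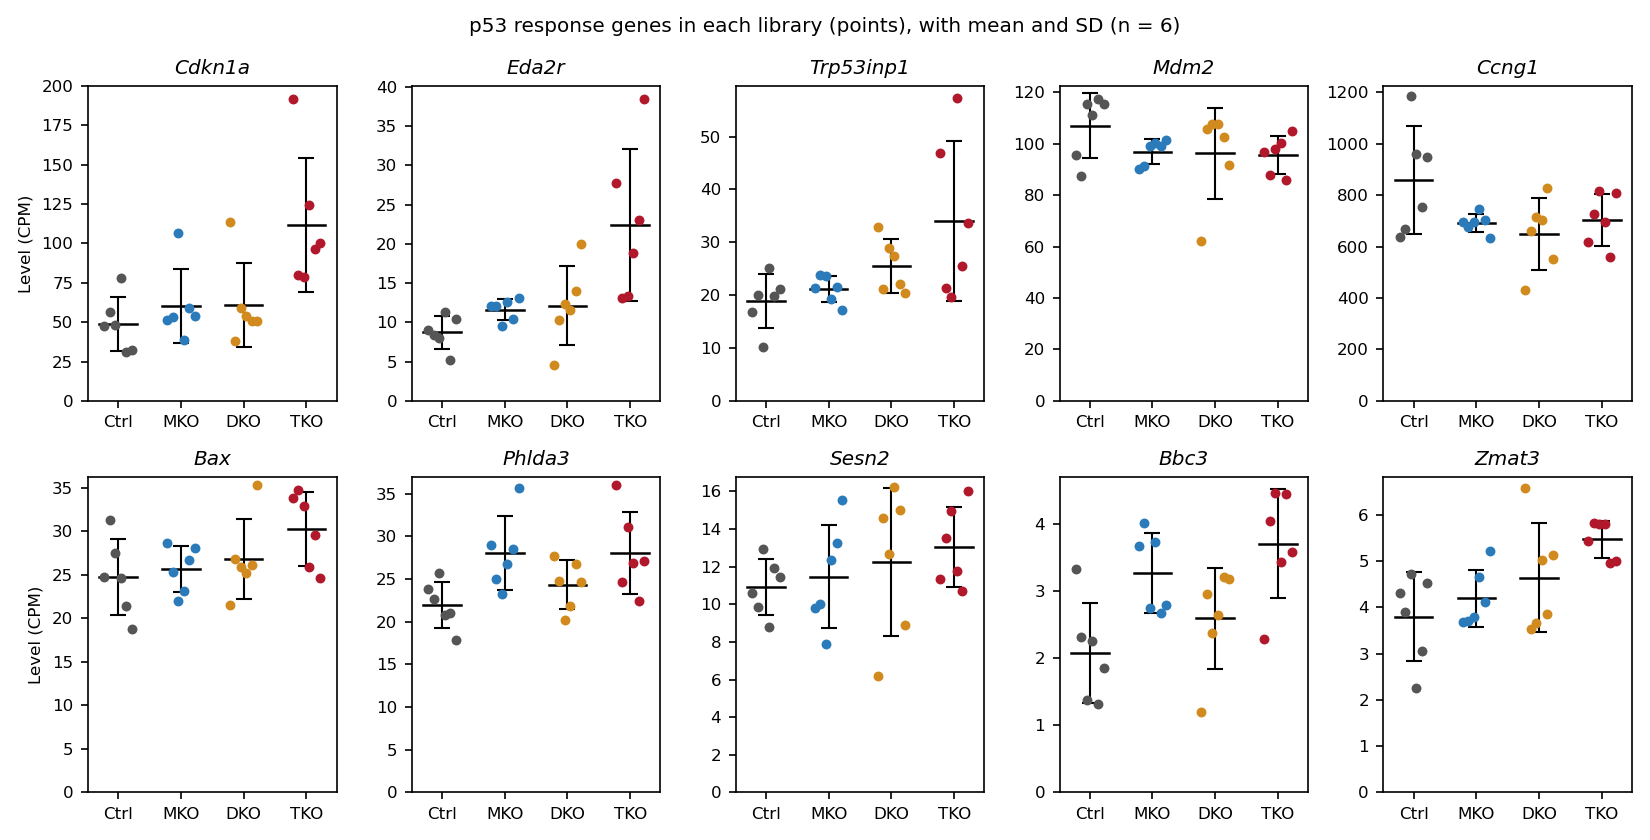
Level of each p53 response gene in CPM (vertical axes, linear and starting at 0) in the 24 libraries, by group. Points are libraries, the horizontal bar is the group mean and the whiskers are the SD (n = 6). TKO libraries of Cdkn1a, Eda2r and Zmat3 all lie above every Ctrl library, and Mdm2 and Ccng1 show no such separation.

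Cdkn1a encodes p21, an inhibitor of cyclin-dependent kinases through which p53 arrests the cell cycle (chr17:29090986-29100722, + strand, mm10). Its lowest, median and highest levels were 31.04, 47.94 and 77.91 CPM in Ctrl. They were 38.63, 53.46 and 106.4 CPM in MKO. In DKO they were 38.18, 52.33 and 113.7 CPM. In TKO they were 78.87, 98.14 and 192 CPM. All TKO libraries were above all Ctrl libraries, while MKO and DKO each overlapped Ctrl and each had 1 high library that reached into the TKO range. Cdkn1a rose in TKO against Ctrl by 1.19 ± 0.28 (log2 ratio ± SE, 95% interval 0.62 to 1.76, adjusted p = 0.00432 by edgeR), or 2.28-fold. Against MKO it was higher in TKO by 0.89 ± 0.27 (adjusted p = 0.0328, edgeR). Against DKO the difference of 0.89 ± 0.27 was of the same size and missed the threshold (adjusted p = 0.0535, edgeR). Without DKO 1, the highest DKO library for this gene, TKO exceeded DKO by 1.15 ± 0.26 and was called (adjusted p = 0.00608, edgeR). Over the 24 fits without 1 library this difference went down to 0.66, with adjusted p up to 0.147, and was called in 5. The call against MKO was lost in 7 of the 24, with adjusted p up to 0.107, all by edgeR.

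Eda2r encodes a receptor of the tumour necrosis factor receptor family, bound by ectodysplasin A2, and lies on the X chromosome (chrX:97333841-97377209, - strand). Its lowest, median and highest levels were 5.19, 8.705 and 11.35 CPM in Ctrl. They were 9.515, 12.11 and 13.12 CPM in MKO. In DKO they were 4.594, 11.93 and 19.96 CPM, the lowest in DKO 1. In TKO they were 13.05, 20.95 and 38.43 CPM. TKO did not overlap Ctrl, its lowest library lay just inside the top of the MKO range, and it overlapped DKO. Eda2r had the largest rise of the 10 genes in TKO against Ctrl, 1.36 ± 0.26 (95% interval 0.81 to 1.90, adjusted p = 0.000872, edgeR), or 2.56-fold. It also exceeded MKO by 0.94 ± 0.26 (adjusted p = 0.0169) and DKO by 0.87 ± 0.26 (adjusted p = 0.0437), both by edgeR. Without DKO 1 the difference from DKO was 0.72 ± 0.23 and was not called (adjusted p = 0.0542, edgeR). Libraries with more than 10 CPM of Xist, a transcript of female cells, numbered 2 of 6 in Ctrl and in MKO, 5 in DKO, and 3 in TKO, so the sexes were not balanced. With Xist as a covariate the rise of Eda2r over Ctrl was 1.34 ± 0.27 (adjusted p = 0.00122, edgeR).

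Trp53inp1 encodes a stress-induced nuclear protein that takes part in p53-dependent death and autophagy (chr4:11156441-11174377, + strand). Its lowest, median and highest levels were 10.2, 20.02 and 25.15 CPM in Ctrl and 17.22, 21.5 and 23.8 CPM in MKO. They were 20.36, 24.72 and 32.96 CPM in DKO and 19.59, 29.52 and 57.22 CPM in TKO. The TKO libraries were widely spread, and the lower ones lay within the Ctrl range. Trp53inp1 rose in TKO by 0.84 ± 0.22 against Ctrl (adjusted p = 0.0119) and by 0.68 ± 0.22 against MKO (adjusted p = 0.0425), both by edgeR. The first call held in each of the 8 alternative fits, whereas the second missed the threshold in 4 of them.

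Bbc3 encodes Puma, a BH3-only protein that frees the mitochondrial death pathway (chr7:16309583-16318334, + strand). Its lowest, median and highest levels were 1.323, 2.049 and 3.331 CPM in Ctrl and 2.665, 3.233 and 4.017 CPM in MKO. They were 1.198, 2.794 and 3.202 CPM in DKO and 2.285, 3.81 and 4.457 CPM in TKO. These were few reads, down to 6 counts in DKO 1. Every MKO and TKO library was above the Ctrl median, and all groups overlapped. Bbc3 rose in TKO against Ctrl by 0.84 ± 0.23 (adjusted p = 0.0152, edgeR). In MKO against Ctrl the difference was 0.66 ± 0.24, with an unadjusted p of 0.00974 and an adjusted p of 0.717 by edgeR.

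Phlda3 encodes a small protein that competes with Akt for membrane lipids and so restrains survival signalling (chr1:135766085-135769134, + strand). Its lowest, median and highest levels were 17.92, 21.86 and 25.75 CPM in Ctrl and 23.3, 27.65 and 35.64 CPM in MKO. They were 20.24, 24.73 and 27.76 CPM in DKO and 22.48, 26.99 and 36.01 CPM in TKO. MKO and TKO had nearly the same levels, and both overlapped Ctrl. The log2 ratio to Ctrl was 0.35 ± 0.12 in TKO, called at an adjusted p of 0.0487, and 0.35 ± 0.12 in MKO, not called at an adjusted p of 0.698, both by edgeR. TKO and MKO themselves differed by 0.0012 ± 0.12 (95% interval -0.24 to 0.24). The TKO call lay at the threshold and was lost in 17 of 24 fits that left out 1 library each, with adjusted p up to 0.144 by edgeR. It held without Ctrl 3, MKO 3, MKO 6, DKO 1, DKO 3, TKO 2 or TKO 5.

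Zmat3 encodes a zinc-finger protein that binds RNA and acts in splicing and decay of transcripts (chr3:32334794-32365665, - strand). Its lowest, median and highest levels were 2.249, 4.108 and 4.726 CPM in Ctrl and 3.674, 3.954 and 5.212 CPM in MKO. They were 3.54, 4.446 and 6.591 CPM in DKO, the highest in DKO 1, and 4.965, 5.617 and 5.82 CPM in TKO. The TKO libraries were the tightest group and all lay above Ctrl. Zmat3 rose in TKO against Ctrl by 0.53 ± 0.18 (adjusted p = 0.0433, edgeR). This call was lost in 13 of 24 fits without 1 library, with adjusted p up to 0.107 by edgeR. Those libraries were Ctrl 2, 4 and 5, MKO 3, 4 and 5, DKO 4 and each of the 6 TKO libraries.

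Bax, the pore-forming protein of the mitochondrial outer membrane (chr7:45461695-45466898, - strand), was not called in any comparison. The median level was 24.72 CPM in Ctrl, 26.02 CPM in MKO as in DKO, and 31.26 CPM in TKO, with ranges from 18.75 to 31.3 CPM in Ctrl and from 24.59 to 34.73 CPM in TKO. In TKO against Ctrl its log2 ratio was 0.29 ± 0.12 (adjusted p = 0.122, edgeR), and limma voom with library quality weights gave 0.40 ± 0.11 (adjusted p = 0.0123). Sesn2, a stress-induced inhibitor of the growth kinase complex mTORC1 (chr4:132492807-132510456, - strand), had medians of 11.03 CPM (Ctrl), 11.19 CPM (MKO), 13.62 CPM (DKO) and 12.65 CPM (TKO). All its groups overlapped, and its ratio of TKO to Ctrl was 0.26 ± 0.19 (95% interval -0.13 to 0.65, adjusted p = 0.407, edgeR).

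The feedback genes lay on the other side of 0. Mdm2, the ubiquitin ligase that degrades p53 (chr10:117688905-117710716, - strand), had lowest, median and highest levels of 87.33, 113.3 and 117.2 CPM in Ctrl and 85.81, 97.4 and 104.8 CPM in TKO. Its medians were 99.05 CPM in MKO and 104.1 CPM in DKO. The groups overlapped, and the ratio of TKO to Ctrl was -0.16 ± 0.11 (95% interval -0.38 to 0.05, adjusted p = 0.337, edgeR). Ccng1, cyclin G1, which recruits a phosphatase to Mdm2 (chr11:40748552-40755286, - strand), was the most abundant member, with 637, 850.8 and 1186 CPM as lowest, median and highest in Ctrl. In TKO these were 560.7, 710.5 and 816.2 CPM. Its log2 ratio to Ctrl was -0.29 ± 0.15 in TKO, -0.31 ± 0.15 in MKO and -0.40 ± 0.15 in DKO, with adjusted p of 0.212, 0.772 and 0.301 by edgeR.

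**Figure D2:**
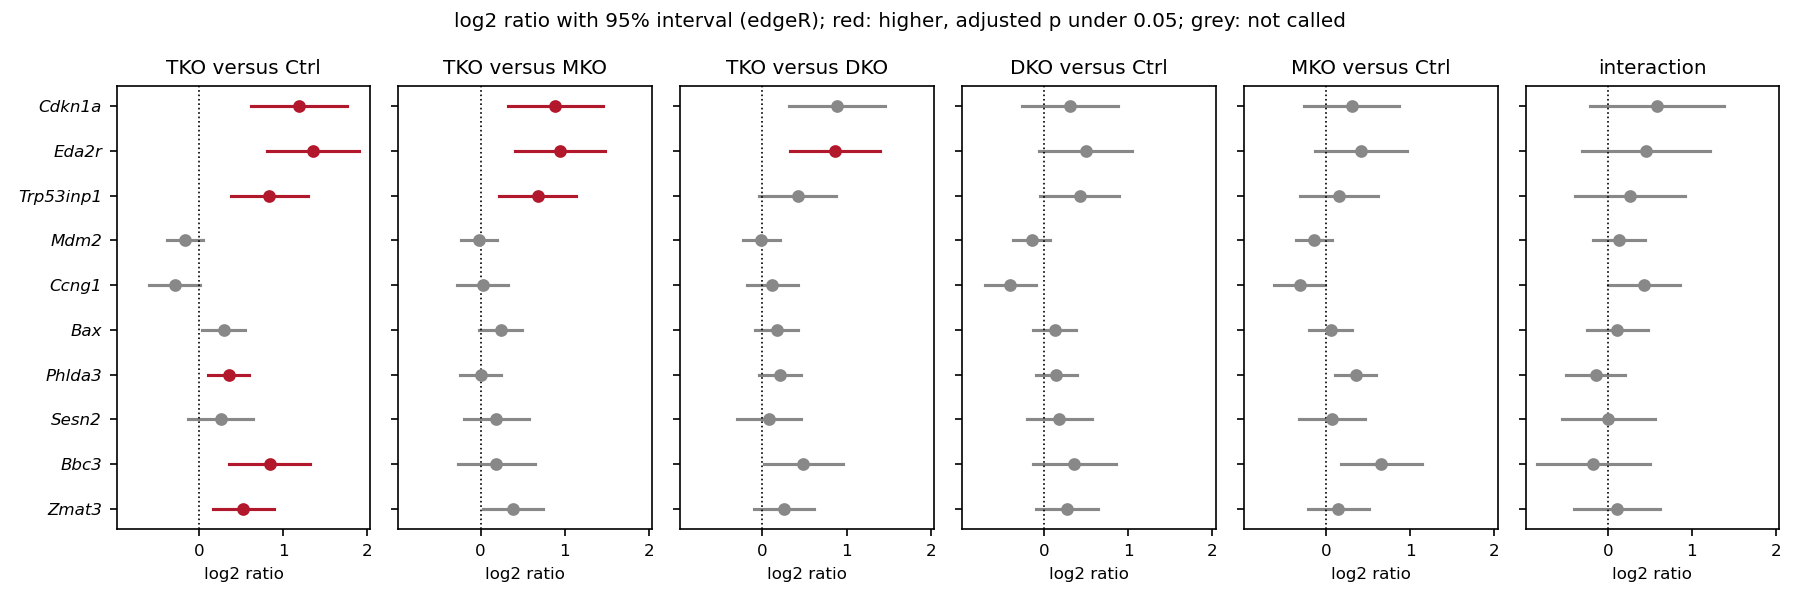
log2 ratios of the 10 genes (points) with 95% intervals (lines) in 5 comparisons of groups and in the interaction, from edgeR. Red marks an adjusted p under 0.05. Of the 10 genes 6 are red in TKO versus Ctrl, 3 in TKO versus MKO, 1 in TKO versus DKO and none in the other 3 panels.

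Over the list, 6 of 10 members were called higher in TKO against Ctrl, where 8.14% of all tested genes were called higher and 14.1% in either direction. The members' median log2 ratio was 0.442, beside -0.00875 over all tested genes. The members were chosen with earlier results of these data known, so this count and median do not test the list. The TKO and Ctrl libraries did not overlap, with TKO higher, for 3 members (Cdkn1a, Eda2r and Zmat3), beside 4.76% of all genes. The authors' deposited table for TKO against Ctrl has the same 6 members under an adjusted p of 0.05, among them Cdkn1a at a log2 ratio of 1.18 and Eda2r at 1.32.

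The libraries of TKO and DKO also differed from Ctrl in composition, although no member was called in DKO against Ctrl. The 20 most abundant genes held 19 to 21.4% of counts in TKO and 20.5 to 22.3% in DKO, beside 21.8 to 23.8% in MKO and 23.1 to 25.4% in Ctrl. The cardiomyocyte marker sum was 80030 to 102700 CPM in TKO and 76440 to 103200 CPM in DKO, beside 87130 to 109300 CPM in MKO and 105800 to 129800 CPM in Ctrl. By both measures DKO and TKO lay wholly below Ctrl and MKO overlapped it. Of the 8 markers Myh6 and Ttn were called lower in TKO against Ctrl. The sum was mostly Myh6 RNA, which averaged 80690 CPM in Ctrl, 64520 CPM in MKO, 55040 CPM in DKO and 52150 CPM in TKO. Actn2 averaged 6406 CPM in Ctrl and 7048 CPM in TKO and was called higher in TKO against DKO. Marker sums of other cells overlapped between TKO and Ctrl: 250.9 to 324.2 against 116 to 663.5 CPM for fibroblasts, 133.6 to 517.7 against 126.1 to 1384 CPM for endothelium, 407.8 to 673.4 against 476.1 to 820.2 CPM for smooth muscle and pericytes, and 9.298 to 14.36 against 4.975 to 12.92 CPM for leukocytes. No marker was at 0 in all libraries of a group, and of these other markers 1, Cspg4, was called higher. Their part in the members' rise was not tested, and in sorted bulk samples a change in the cells present and a change per cell cannot be told apart.

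MKO against Ctrl compares the guide virus with AAV-Cre in mice with intact Mrtf genes, and the viruses may differ in Cre as well as in the guide. None of the 10 members was called by edgeR, DESeq2 or voom, and 0% of all genes were called by edgeR. At an unadjusted p under 0.05 stood 3 members, Phlda3, Bbc3 and Ccng1, beside 6.2% of all genes. Phlda3 and Bbc3 were above Ctrl and Ccng1 below it, as given above. Eda2r was 0.41 ± 0.27 and Cdkn1a 0.30 ± 0.28 above Ctrl (adjusted p = 0.786 and 0.836, edgeR). The interval for Cdkn1a, -0.26 to 0.87, extends well above 0. That value leaned on MKO 3, the library with 106.4 CPM, and without it the ratio was 0.05 ± 0.27. The median of the members was 0.153, beside a median of -0.000043 over all genes.

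DKO against Ctrl compares the Mrtf genotypes with no guide in either group. Again none of the 10 members was called by edgeR, DESeq2 or voom, where 0.635% of all genes were called by edgeR. Ccng1 alone had an unadjusted p under 0.05 by edgeR, beside 10.5% of all genes. The members' median was 0.227, beside 0.0246 over all genes. Eda2r was 0.49 ± 0.27 and Trp53inp1 0.42 ± 0.23 above Ctrl (adjusted p = 0.543 and 0.538, edgeR). Cdkn1a was 0.31 ± 0.28 above Ctrl, and without DKO 1 the ratio was 0.04 ± 0.26. DKO against MKO likewise had no member called by edgeR, DESeq2 or voom, where 0.79% of all genes were called by edgeR. No member had an unadjusted p under 0.05 there, beside 15.3% of all genes.

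TKO against DKO compares the same viruses in the Mrtf-mutant mice. Of the 10 members 1, Eda2r, was called higher, beside 4.16% of all genes. The median of the members was 0.233, beside -0.0395 over all genes. No member was called when 1 library among MKO 1, 2, 4 and 6, DKO 2, 3, 4 and 5, and TKO 1, 4, 5 and 6 was left out. Without DKO 1, Cdkn1a was called and Eda2r was not. Both were called without Ctrl 4, MKO 3, TKO 2 or TKO 3, and by DESeq2. Bbc3 was 0.49 ± 0.23 higher (adjusted p = 0.194, edgeR), and Mdm2 differed by -0.01 ± 0.11. The authors' deposited table has Cdkn1a at 1.15 with an adjusted p of 4.46e-06 and Eda2r at 0.73 with 0.0546. These lie nearer to the edgeR fit of 22 libraries, without Ctrl 3 and DKO 1, which gave 1.16 and 0.73, than to the values from all 24 libraries. The sources used here do not say which libraries entered the authors' table.

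TKO against MKO compares the Mrtf genotypes where both groups had the guide. Of the 10 members 3 were called higher (Cdkn1a, Eda2r and Trp53inp1), beside 6.48% of all genes, and the median of the 10 was 0.213. The count was 1 when MKO 1, 2, 4, 5 or 6 or TKO 1, 4 or 6 was left out, and 2 without MKO 3. Zmat3 was 0.38 ± 0.17 higher (adjusted p = 0.142, edgeR). Phlda3 and Bbc3 were close in both guide groups, Bbc3 differing by 0.18 ± 0.22 (adjusted p = 0.65, edgeR). In this comparison several markers of other cells were called lower in TKO, where 843 of 12281 tested genes were called lower. These were 4 of 8 endothelial, 2 of 8 fibroblast and 5 of 7 smooth muscle and pericyte markers. Among them Pdgfrb fell by 1.71 on the log2 scale, while Cspg4 rose. None of 6 tested leukocyte markers was called. The endothelial sum was 133.6 to 517.7 CPM in TKO and 543.1 to 1171 CPM in MKO, and its part in the members' values was not tested. TKO against Ctrl, MKO and DKO share the TKO libraries, so these comparisons are not independent.

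Averaged over both genotypes, the guide effect is the mean of MKO minus Ctrl and TKO minus DKO. Of the 10 members 2 were called higher, Eda2r at 0.64 ± 0.19 (adjusted p = 0.0477) and Bbc3 at 0.57 ± 0.16 (adjusted p = 0.044), both by edgeR, beside 2.95% of all genes. Phlda3 at 0.28 ± 0.08 and Cdkn1a at 0.59 ± 0.19 followed (adjusted p = 0.0573 and 0.0817, edgeR). Without DKO 1, 4 members were called, with Cdkn1a at 0.72 ± 0.18 (adjusted p = 0.0158) and Phlda3 at 0.30 ± 0.08 (adjusted p = 0.0318) added, both by edgeR. None was called when 1 library among Ctrl 3, 5 and 6, MKO 1, 2, 4, 5 and 6, DKO 2, 3 and 4, and TKO 4 and 6 was left out. Leaving out Ctrl 1, Ctrl 2, Ctrl 4, DKO 5, TKO 1, TKO 2, TKO 3 or TKO 5 left 1 member called. Whether the guide effect differed by genotype was tested as the interaction, in which no member was called by edgeR, DESeq2 or voom, beside 0.464% of all genes by edgeR. The largest interaction was Cdkn1a at 0.58 ± 0.39 (95% interval -0.22 to 1.38, adjusted p = 0.576, edgeR). Without DKO 1 it was 0.86 ± 0.35, with an unadjusted p of 0.023 and an adjusted p of 0.198, and without MKO 3 it was 0.83 ± 0.37 (adjusted p = 0.345), both by edgeR. Ccng1 at 0.43 ± 0.21 was the 1 member with an unadjusted p under 0.05 in the fit of all libraries (adjusted p = 0.401, edgeR), beside 12.4% of all genes. Without DKO 1 Ccng1 was at 0.36 ± 0.19 with an unadjusted p of 0.0676, and without both Ctrl 3 and DKO 1 it was at 0.25 ± 0.17 (adjusted p = 0.495), both by edgeR. A larger effect of the guide virus on any member in Mrtf-mutant mice was thus not shown, and the intervals are too wide to show equal effects.

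**Figure D3:**
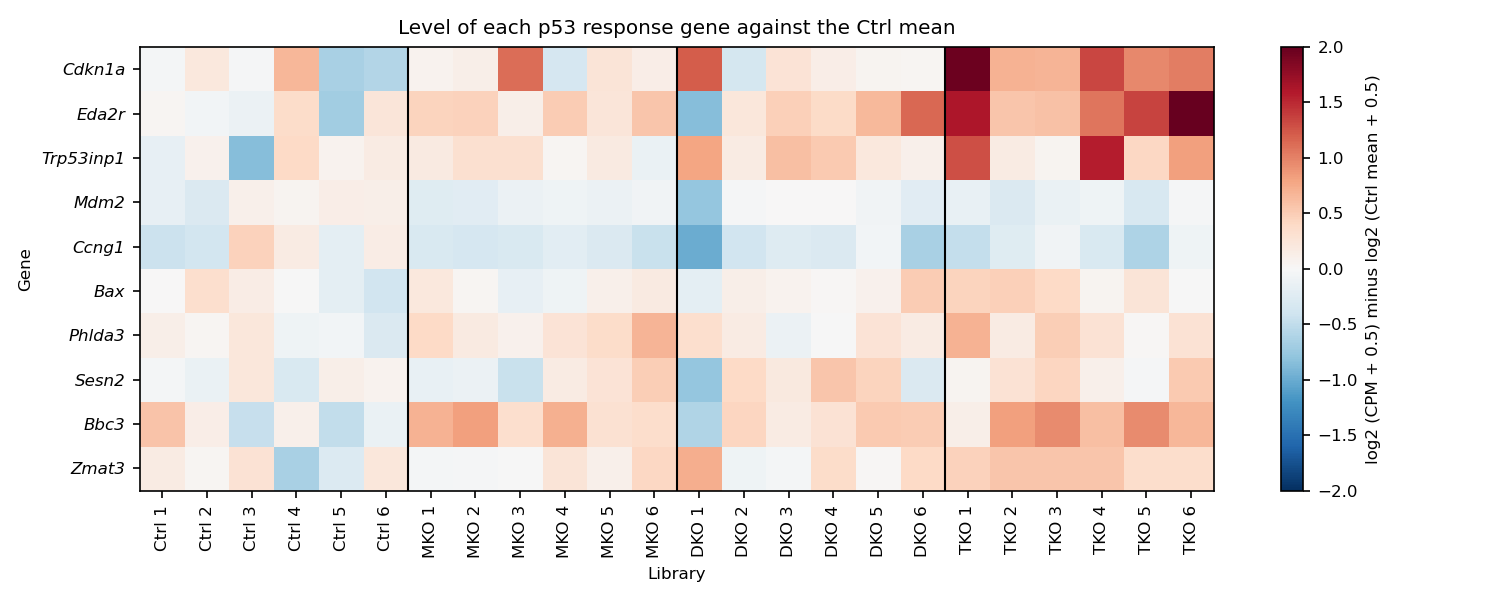
Each library's level of the 10 genes on the log2 scale (CPM + 0.5) minus the Ctrl mean, with red above and blue below it and the scale limited to 2 in either direction. The TKO columns are red for Cdkn1a, Eda2r and Zmat3, but the darkest TKO library is not the same for every gene, and DKO 1 is red for Cdkn1a and blue for Mdm2 and Ccng1.

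Of the genes called in TKO against Ctrl, Cdkn1a and Phlda3 were highest among the TKO libraries in TKO 1, Eda2r in TKO 6, Trp53inp1 in TKO 4, Bbc3 in TKO 3 and Zmat3 in TKO 2. TKO 1 was among the 3 highest of all libraries for 5 members, the most of any library, and its median rank over the 10 members was 4, but Bbc3 was lowest there within TKO. Among the 6 highest of the 24 libraries were 4 TKO libraries for Cdkn1a, 4 for Eda2r, 4 for Bax and 4 for Zmat3, but none for Mdm2, of whose top 6 libraries 4 were Ctrl. Within groups, the SD of log2 CPM was 0.506 for Eda2r and 0.497 for Cdkn1a, and 0.19 for Mdm2.

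Likeness over the 24 libraries was measured as the root mean square difference in log2 CPM after centring each gene. The candidates were 7778 genes at or above 10 CPM on average, without the 10 members, numbered clone names and pseudogenes. Among the genes closest to Cdkn1a were Csrnp1 (0.329), Ntsr2 (0.331), Fam46a (0.34) and Fhl1 (0.368), where the median gene was at 0.677. The member closest to Cdkn1a was Trp53inp1 at 0.457. The genes closest to Eda2r were Gmfb (0.364), Gpr125 (0.365), Azin1 (0.366), Sipa1l1 (0.382) and Sh3bgrl (0.382), with a median of 0.693. The member closest to Eda2r was Bbc3 at 0.515. Members were compared apart from the candidates, and none was as close to either gene as its 5 closest candidates. The points share libraries and depth. Mdm2 and Ccng1 were the most alike pair of members, at 0.182. The measure is not scaled by spread, so genes that vary little lie close together. The SD of log2 CPM over all libraries was 0.191 for Mdm2 and 0.29 for Ccng1, beside 0.649 for Cdkn1a and 0.67 for Eda2r.

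Trp53 was level across groups, with means and SDs of 15.5 ± 3.27 CPM for Ctrl, 16.8 ± 2.51 for MKO, 16.9 ± 1.72 for DKO and 15.9 ± 1.97 for TKO (n = 6). Its ratio of TKO to Ctrl was 0.03 ± 0.13 (95% interval -0.24 to 0.31, adjusted p = 0.908, edgeR). Since p53 is controlled mainly as a protein, its RNA level does not report its activity. Of 10 tested genes in the list of p53 and its regulators, 2 rose in TKO against Ctrl, beside 8.14% of all tested genes. One of them was Trp63, which encodes the p53 relative p63, at 1.38 ± 0.22 (adjusted p = 8.22e-05, edgeR). Trp63 stood low, at 1.79 ± 0.492 CPM in Ctrl and 4.65 ± 0.98 CPM in TKO. Mdm4, the partner of Mdm2, differed by 0.23 ± 0.22 and was not called (adjusted p = 0.537, edgeR). It was chosen after its value was seen.

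A list of 39 other p53 targets gave 33 tested genes, of which 3 rose and none fell in TKO against Ctrl, 30 being uncalled. Over all tested genes 8.14% were called higher there, so this count was near that share. The median of the 33 was -0.0549, against 0.442 for the 10 members. Both lists were chosen with earlier results of these data known, and the part of that choice in the contrast was not tested. Gdf15, a secreted stress cytokine, rose by 2.13 ± 0.50 (adjusted p = 0.00441), Ephx1, an epoxide hydrolase, by 1.59 ± 0.23 (adjusted p = 3.37e-05) and Xpc, a sensor of DNA damage in nucleotide excision repair, by 0.57 ± 0.09 (adjusted p = 4.94e-05), all by edgeR. Ephx1 had lowest, median and highest levels of 5.099, 7.498 and 13.15 CPM in Ctrl and 15.01, 20.39 and 42.87 CPM in TKO. Xpc had 26.17, 27.38 and 32.28 CPM in Ctrl and 36.41, 41.51 and 51.42 CPM in TKO. For both genes TKO lay wholly above Ctrl, as it did for 4.76% of all tested genes. Gdf15 was at 0.305 to 1.37 CPM in Ctrl and 0.867 to 11.1 CPM in TKO, so its groups overlapped. The same 3 genes rose in TKO against DKO and against MKO and in the guide effect. Of all tested genes 4.16%, 6.48% and 2.95% were called higher there, in the same order. Gadd45a, a growth arrest gene, fell by 0.79 in TKO against DKO and by 0.57 in the guide effect, and Plk3, a stress-responsive kinase, fell by 1.39 in TKO against MKO. Without DKO 1 Gadd45a was -0.62 in TKO against DKO and was not called (adjusted p = 0.061, edgeR). Of 24 fits without 1 library, the Gadd45a calls were lost in 4 and 10, and the Plk3 call in 7. The Gdf15 call was lost in 4 against MKO and in 1, without MKO 3, for the guide effect.

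**Figure D4:**
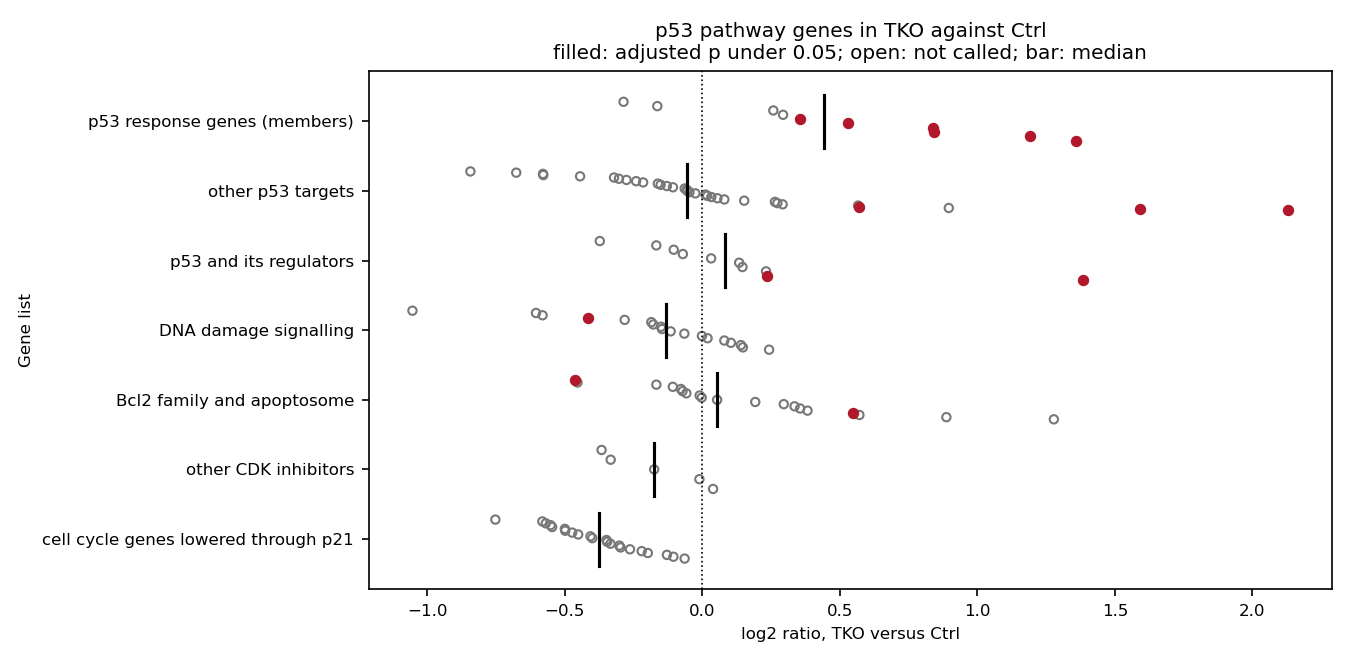
log2 ratio of TKO to Ctrl (horizontal axis) for the tested genes of 7 lists of the p53 pathway (vertical axis). Filled points have an adjusted p under 0.05 by edgeR, open points are not called and bars are list medians. The members' median is 0.442 with 6 filled points, and the 33 other p53 targets have a median of -0.0549 with 3. The lists were chosen with earlier results of these data known. Of all tested genes 14.1% were called in either direction.

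Lists of the neighbouring parts of the pathway were also examined in TKO against Ctrl, where 14.1% of all tested genes were called in either direction. Of 18 DNA damage signalling genes 1 was called: H2afx, the histone variant that is phosphorylated at DNA breaks, fell by 0.41 ± 0.14 (adjusted p = 0.0415, edgeR). That call was lost in 5 of the 8 alternative fits and in 8 of 24 fits without 1 library. Among 19 tested genes of the Bcl2 family and the apoptosome, Bcl2l1, which encodes the survival protein Bcl-xL, rose by 0.55 ± 0.15 (adjusted p = 0.012) and Cycs, cytochrome c, fell by 0.46 ± 0.14 (adjusted p = 0.0217), both by edgeR. The Cycs call was lost without Ctrl 3, 4 or 5 or TKO 4 or 5. None of the 5 tested other inhibitors of cyclin-dependent kinases was called. None of 22 cell cycle genes that p21 is known to lower was called in TKO against Ctrl, but all 22 log2 ratios lay below 0, from -0.753 to -0.0645 with a median of -0.374, where 48.7% of all tested genes lay above 0. The median of these 22 genes was -0.0156 in MKO against Ctrl and -0.00818 in DKO against Ctrl. Markers of other cells had medians in TKO against Ctrl of -0.679 (endothelium), -0.582 (smooth muscle and pericytes), -0.301 (fibroblasts) and 0.521 (leukocytes). The part of such cells or of p21 in the 22 ratios, which share libraries, was not tested. In TKO against MKO the called genes of the neighbouring pathway lists were Bik (-0.71), Bnip3l (0.41), Prkdc (0.38), H2afx (-0.41) and Cdkn1c (-1.06). The Bik call held in all 8 alternative fits and all 24 fits without 1 library. Of those 24 fits, the calls were lost in 9 for Bnip3l, 13 for Prkdc, 16 for H2afx and 9 for Cdkn1c. No gene of the neighbouring pathway lists was called by edgeR in MKO against Ctrl, DKO against Ctrl, DKO against MKO or the interaction. Over all tested genes the shares called were 0%, 0.635%, 0.79% and 0.464%, in the same order.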

How the data were processed

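Polyadenylated RNA of sorted cardiomyocytes was sequenced after SMART-Seq v4 amplification and Nextera XT library construction, per the labels' protocols. Strand is not marked by these kits, so reads of a gene and of an overlapping or antisense gene were not separated. The authors deposited whole-number read counts per gene, together with positions and summed exon lengths. The submitters' processing notes name STAR, featureCounts, DESeq2 and mm10, and versions and the handling of reads with several matches are not given in the sources used here. The authors' deposited comparison tables give mean normalized counts (a signal that is never negative), log2 fold changes and their standard errors, and raw and adjusted p-values, per the file headers.

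Counts were fitted with edgeR 4.0.16 in R 4.3.3 (TMM scaling, filterByExpr with a minimum count of 10, quasi-likelihood test, two-sided, 1 coefficient per group, all 24 libraries). Benjamini-Hochberg adjustment ran over 12281 genes, with calls at an adjusted p under 0.05. The 8 comparisons were the pairs of groups, the guide effect, and the interaction, which subtracts MKO minus Ctrl from TKO minus DKO. CPM and RPKM used effective library sizes. No member was removed by the filter, so the exact permutation test planned for that case was not needed. The procedure was tested on simulated data.

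Alternatives were RLE scaling, DESeq2 1.42.0, limma 3.58.1 voom with quality weights, no filter, a replicate block, 22 libraries without Ctrl 3 and DKO 1, Xist as a covariate, only the compared groups, and leaving out each library. The text names the 10 members, Trp53, called genes of the other lists (up to 4 per list), the 5 genes most like Cdkn1a and Eda2r, and Myocd, Mkl1 and Mkl2, apart from genes that are not reported here. The members, lists and alternatives were chosen with earlier results of these data known. The 60 pairs of libraries within groups were checked for repeats and none was identical.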

Additional observations from a re-analysis of the deposited data

Results flagged for a closer look

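Among the 40 sets of 6 libraries (10 members in 4 groups), 3 had a library far from the rest by Dixon's criterion, which chance alone meets in about 1 in 20 sets. Cdkn1a in MKO 3 was at 106.4 CPM, with the next MKO library at 58.87 CPM. Cdkn1a in DKO 1 was at 113.7 CPM, with the next at 59.26 CPM. Mdm2 in DKO 1 was at 62.12 CPM, below the next lowest at 91.64 CPM. DKO 1 was also the smallest library.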

How the results depend on the processing

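In TKO against Ctrl, the calls for Cdkn1a, Eda2r, Trp53inp1 and Bbc3 held in all 8 alternatives and all 24 fits without 1 library. Phlda3 was lost in 4 alternatives and Zmat3 in 2, and the number of members called ranged from 4 to 7, and from 4 to 6 without 1 library. In TKO against DKO, 2 members were called with DESeq2, 2 with voom, 2 with the replicate block and 0 with only the compared groups, and 0 to 2 without 1 library. The guide effect had 4 with voom, 0 without the filter, 1 with the replicate block, and 0 to 4 without 1 library. TKO against MKO had 1 to 3 without 1 library. The other 4 comparisons had 0 members called throughout. Which cause moved these counts was not tested. With 22 libraries, leaving out Ctrl 3 and DKO 1, Cdkn1a was called in TKO against DKO at 1.16 and Eda2r was not at 0.73.

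Of 2540 refitted values of the members, 72 lay on the other side of 0 from the reported value; none was called in either fit, and the largest reported value among them was 0.117. With voom these were Ccng1 -0.017 and Sesn2 -0.11 (TKO against DKO), Ccng1 -0.018 and Phlda3 -0.041 (TKO against MKO), Cdkn1a -0.15 and Mdm2 0.10 (DKO against MKO), and Sesn2 -0.16 (interaction) and -0.030 (guide effect). With 22 libraries they were Sesn2 -0.033 (TKO against DKO), Cdkn1a -0.26, Mdm2 0.092 and Ccng1 0.0046 (DKO against MKO) and Sesn2 -0.14 (interaction). With Xist as a covariate they were Mdm2 0.10 (TKO against DKO), Ccng1 -0.023 (TKO against MKO), Eda2r -0.016 and Sesn2 -0.015 (DKO against MKO) and Zmat3 -0.019 (interaction). With the replicate block they were Phlda3 -0.0050 (TKO against MKO) and Cdkn1a -0.059 (DKO against MKO). With only the compared groups they were Phlda3 -0.0024 (TKO against MKO) and Mdm2 0.0025 (DKO against MKO), and with DESeq2 Mdm2 0.00065 (DKO against MKO).

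Without 1 library, the ranges that crossed 0 were, in DKO against MKO, Cdkn1a -0.25 to 0.26, Eda2r -0.12 to 0.23, Mdm2 -0.042 to 0.094, Ccng1 -0.17 to 0.0067 and Bax -0.026 to 0.13. In TKO against DKO they were Mdm2 -0.10 to 0.022 and Sesn2 -0.038 to 0.17. In TKO against MKO they were Mdm2 -0.048 to 0.0091, Ccng1 -0.018 to 0.083 and Phlda3 -0.083 to 0.081. In MKO against Ctrl they were Bax -0.027 to 0.13 and Sesn2 -0.034 to 0.14, and in the interaction Sesn2 -0.095 to 0.11.

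Replicate numbers gave no clear pairing of the libraries. Deviations from group means had a mean correlation of 0.0776 in 36 pairs of libraries with the same number and -0.0155 in 180 other pairs. The 36 ranged from -0.218 to 0.642, and 14 were over 0.1. Of 24 libraries 6 correlated best with their own number. Bbc3 and Zmat3 had the fewest reads. Sesn2 and Eda2r also had few, with Ctrl means of 10.93 and 8.725 CPM. Low counts limit what could be detected for these genes.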
